A study of Mus musculus with 20 samples.

Results

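Oct4 (Pou5f1) binding was compared between F9 cells before and after retinoic acid (RA), using the 2 Oct4 libraries of F9 cells among the 20 samples of the series. F9 is a mouse embryonal carcinoma cell line. The untreated library is labelled undifferentiated, and the RA library came from F9 cells given 1 µM RA and labelled as having become like primitive endoderm, the early extraembryonic layer of the embryo. Both libraries used the same Oct4 antibody, and F9 cells were grown in medium with 15% serum. Of the 18 samples with a peak list, the others used here were Sox17 in F9+RA cells and 15 libraries of KH2 embryonic stem (ES) cells. The ES cells were induced with doxycycline at 1 µg/ml to express a V5-tagged Sox2, Sox17, Sox2KE or Sox17EK. There were 8 Sox libraries and 7 Oct4 libraries of these lines. For ES Oct4 libraries the labels list V5 as well as Oct4 antibody, so at those libraries' peaks Oct4 cannot be told apart from the tagged Sox protein. The Sox17 libraries of ES cells list a Sox17 antibody and V5, and the other Sox libraries V5 alone. Each F9 condition has 1 library and no replicate, so no test of the effect of RA was possible. How long RA was given, and what share of cells responded, is not stated in the labels. Weaker binding in all cells cannot be told apart from binding in fewer cells. Peak lists hold no measure of gene expression, so the labelled cell states were not checked here.

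Oct4 is a POU-domain transcription factor that keeps cells pluripotent. It commonly binds DNA beside an HMG-box partner of the Sox family. In pluripotent cells that partner is Sox2, and in primitive endoderm, where Sox17 is made, Oct4 can pair with Sox17 on a composite site with closer spacing. A single residue of the HMG box, lysine in Sox2 and glutamate in Sox17, is known to set which pairing is favoured. Sox2KE and Sox17EK exchange that residue, so Sox2 and Sox17EK are called lysine proteins here and Sox2KE and Sox17 glutamate proteins. Both were measured in ES cells and played no part in choosing the F9 sites described below.

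The Oct4 list held 64582 peaks in F9 cells and 84196 in F9+RA cells, with median widths of 699 and 487 bp. Each peak carries the authors' score, which started at 50 in both lists and had tied values at 3100 near the top. Scores were used as ranks within a list, because read depth is unknown. Peaks of the 2 lists that overlapped by at least 1 bp were joined, which gave 99611 sites on build mm9. A site with peaks in both lists is called kept, one with an F9+RA peak alone appearing, and one with an F9 peak alone vanishing. These names describe 2 lists with a threshold, and a weak peak can cross it by sampling alone.

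Most strong Oct4 sites were held before and after RA, and absence from one list was mainly a property of weak peaks. Kept sites numbered 43126 (43.3% of all sites). Appearing sites numbered 35986, a background of 36.1% of all sites, and vanishing sites 20499, a background of 20.6%. With both lists held to equal length the order turned, with 21781 appearing and 24689 vanishing sites. When the peaks of each list were put in 10 groups of equal size by score, 35.3% of the weakest F9 peaks had a partner in F9+RA cells and 99.1% of the strongest did. In the F9+RA list the share with a partner ran from 25.5% in the weakest group to 94.7% in the strongest. The median score was 68.7 at appearing and 73.2 at vanishing sites, both below the medians of the whole lists, 94.6 for F9+RA and 119 for F9. A score of at least 1000 was reached by 61 appearing sites and by 2 vanishing sites. A score of at least 500 was reached by 268 appearing and 61 vanishing sites, in lists where 5524 F9+RA and 6461 F9 peaks reached it. Strong sites without a partner were thus more numerous after RA than before it.

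At kept sites the order of strength was partly rearranged. Sites were ranked among the 43126 kept sites in each list, as percentiles from 0 (weakest) to 100 (strongest), so that both ranks have the same length. Across kept sites, which are not independent replicates, the scores had a Spearman rho of 0.65, and the median change was 13.9 percentile points. A site is called rising where its percentile was at least 25 points higher after RA, falling where it was at least 25 points lower, and steady otherwise. Rising sites numbered 5687, a background of 13.2% of kept sites, and falling sites 6032, a background of 14.0%. The remaining 31407 were steady. Of the 1000 strongest kept sites of F9 cells, 502 were also among the 1000 strongest of F9+RA cells. The lowest of the F9 top group lay at percentile 23.8 after RA, and the lowest of the F9+RA top group had been at percentile 3.40 before it. Falling sites made up 21 of the 1000 strongest in F9 and rising sites 58 of the 1000 strongest in F9+RA.

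**Figure D1:**
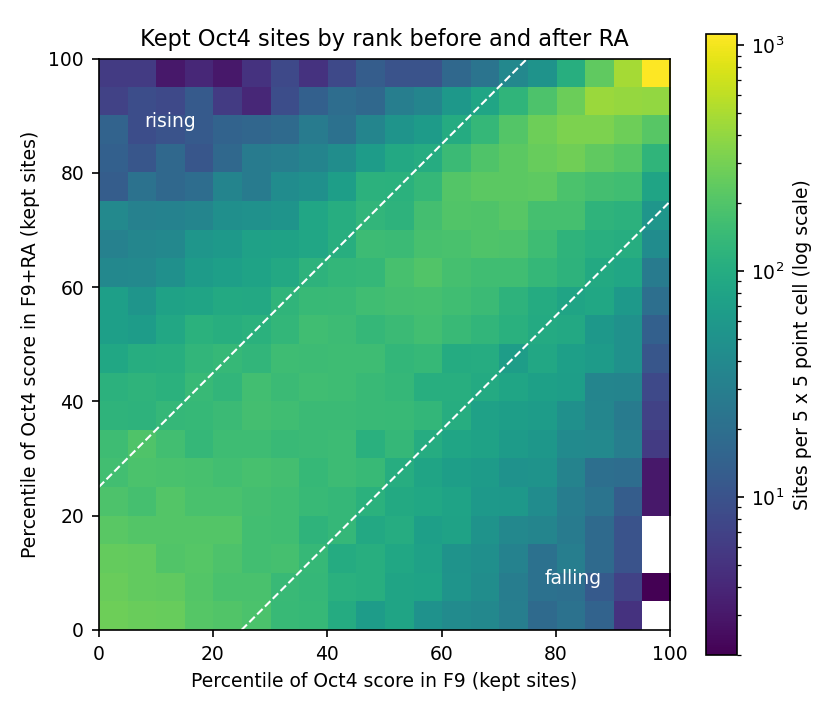
Number of kept Oct4 sites (colour, log scale) by the percentile of the Oct4 score in F9 cells (horizontal axis) and in F9+RA cells (vertical axis), in cells of 5 by 5 points; dashed lines mark a change of 25 points. Sites are densest near the diagonal and at the top of both lists, and few strong F9 sites reach the bottom of the F9+RA ranks.

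Because F9 conditions were not replicated, the same measures were taken between replicates A and B of the ES Oct4 libraries, with every list held to its 32848 strongest peaks. Of all sites, 51.3% were held by both F9 lists, against 61.0% for the replicates of the Sox2 line, 63.3% for the Sox2KE line and 69.4% for the Sox17EK line. The F9 pair therefore shared fewer sites than any of the 3 replicate pairs at this length. Among shared sites, 31.0% moved by at least 25 points in the F9 pair, and 30.1%, 23.7% and 17.3% in the replicate pairs in the same order. At this length the amount of rank change between F9 and F9+RA was close to that between the Sox2 line replicates, so a single rising or falling site is not set apart from replicate spread by its rank change. With the 5000 strongest peaks the F9 pair shared 38.7% of sites, against 47.9%, 47.4% and 68.4%, and 40.5% of shared sites moved, against 27.6%, 44.7% and 16.4%. With the 1000 strongest peaks the F9 pair shared 32.4% of sites, against 54.5%, 32.4% and 64.2% in the replicate pairs. Of shared sites, 45.7% moved in the F9 pair, against 50.1%, 49.0% and 47.8%, so at that length the F9 pair moved least.

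**Figure D2:**
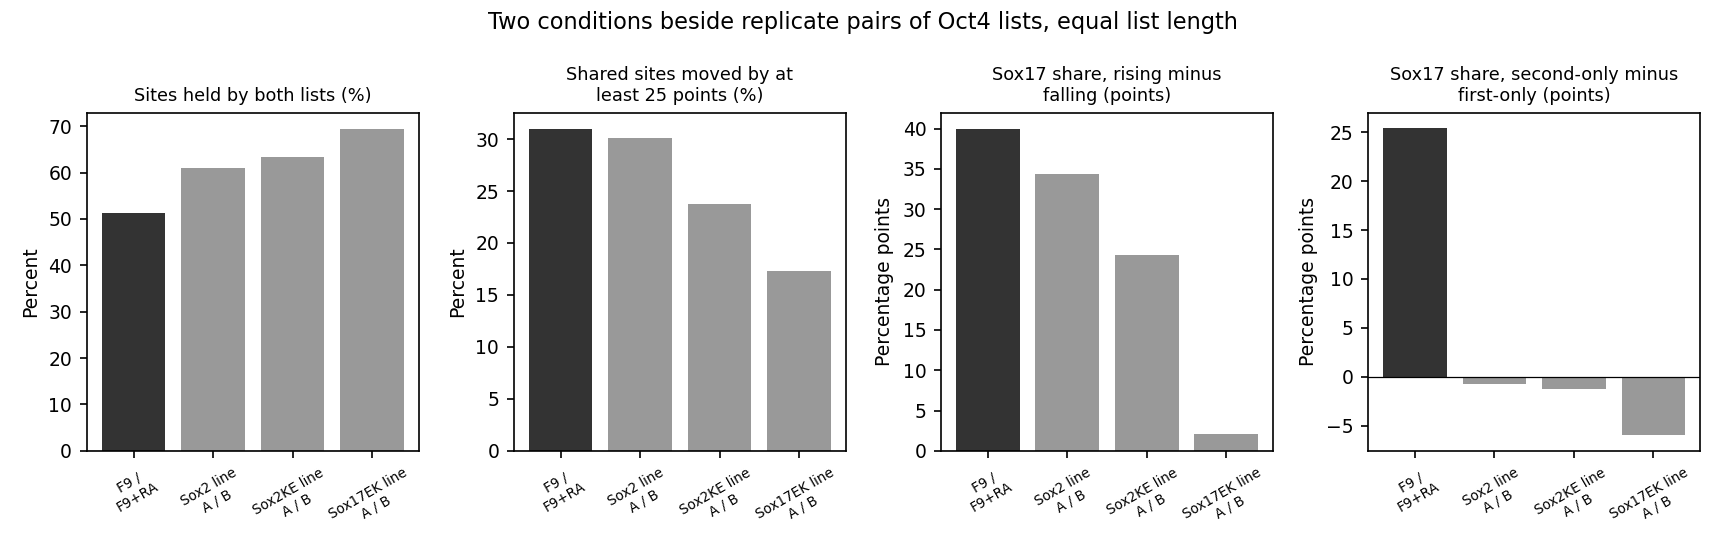
Oct4 lists of F9 and F9+RA cells (dark bars) beside replicate pairs of ES Oct4 lists (grey bars), each list held to its 32848 strongest peaks: percent of sites held by both lists, percent of shared sites moved by at least 25 percentile points, and the difference in Sox17 share (percentage points) between rising and falling sites and between sites of the second and the first list alone. The F9 pair has the lowest share of common sites and, for sites of one list alone, a Sox17 difference of 25.4 points against -6.01 to -0.718 in the replicate pairs, whose signs are arbitrary.

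The strongest appearing sites all carried Sox17, which lay at 15.3% of all appearing sites. Strong sites had Sox17 more often. With the 1000 strongest peaks of each list, it lay at 85.7% of sites of the F9+RA list alone, which may have a weaker F9 peak. The 6 named sites are therefore not set apart from other strong F9+RA sites by having Sox17. The first, on chromosome 1 at 167784582 to 167785450, had an Oct4 score of 3122 in F9+RA cells and a Sox17 score of 1177. Its ES peaks came from the Sox17 line alone, at 1821 and 879 for Sox17 and 1686 for Oct4. A site on chromosome 3 at 121642616 to 121643598 scored 3100 for Oct4 and 1993 for Sox17 in F9+RA cells. It had weak Sox17 peaks in ES cells (71.6 and 53.8) and no ES Oct4 peak. Chromosome 4 held a pair of these sites. One, at 100337492 to 100338027, scored 3100 for Oct4 and 1712 for Sox17, with ES Sox17 peaks of 323 and 91.3. The other, at 111155453 to 111156628, scored 3100 and 2758, and its ES Sox peaks were those of Sox2KE, at 52.7 and 111. These sites differ in which glutamate protein met them in ES cells. On chromosome 13 at 31566142 to 31566772, Oct4 scored 2900 and Sox17 1866 after RA. The sixth, on chromosome 18, scored 2785 for Oct4 and 1257 for Sox17 and had no peak in any ES library. Counting each of the 6 sites in each of 4 libraries, lysine Sox libraries had a peak in 0 of 24 cases and glutamate Sox libraries in 10 of 24. Over all appearing sites the mean share with a peak was 4.34% for lysine and 7.33% for glutamate libraries, both low. The medians were 4.17% and 4.90%. Glutamate libraries ran from 1.62% to 17.9%, the highest being replicate B of Sox2KE, the longest ES Sox list with 71693 peaks.

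The strongest vanishing sites were weaker and carried no Sox17 peak, where 5.46% of all vanishing sites had one. On chromosome 8 at 114312829 to 114314179, Oct4 scored 1009 in F9 cells. In ES cells this site had a peak in every Oct4 library. The scores were 3100 and 906 for cells with Sox2, 3100 and 2590 with Sox17EK, 257 and 160 with Sox2KE and 1036 with Sox17. Sox2 scored 623 and 398 there and Sox17EK 1366 and 345. A like site on chromosome 5, at 108947312 to 108948666, scored 881 in F9 cells. Its ES Oct4 scores were 2655 and 565 with Sox2, 3100 and 919 with Sox17EK, 137 and 124 with Sox2KE and 255 with Sox17. Scores of different libraries are not on a common scale, so they do not rank the lines. In replicate A, 773 peaks of the Sox2 line and 925 of the Sox17EK line scored 3100 or more, against 50 of the Sox2KE line. The other vanishing sites lay on chromosome 13 at 107645946 to 107647206 (F9 score 1005), chromosome 5 at 117570972 to 117572245 (949), chromosome 4 at 121408046 to 121409279 (883) and chromosome 4 at 134382257 to 134382762 (874). Peaks of these 6 sites were found in 15 of 24 cases in lysine Sox libraries and in 6 of 24 in glutamate ones. Across all vanishing sites the mean share with a peak was 12.9% for lysine and 10.5% for glutamate libraries, a much smaller gap. The medians were 13.3% and 7.24%, and glutamate libraries ran from 1.57% to 26.1%.

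Among the 1000 strongest kept sites of F9+RA cells, those with the largest gain of rank had been at the bottom of the F9 list. All 6 named had a Sox17 peak, as had 38.1% of all rising sites. Of the 154 kept sites in the top 20 percentile points after RA and the lowest 20 before it, 74.0% had one. The 6 named lie among these. On chromosome 14 at 73246821 to 73247822, the Oct4 score was 54.6 in F9 (percentile 3.40) and 1803 in F9+RA cells (percentile 99.3), with a Sox17 score of 538. All 7 ES Oct4 libraries had a peak there, with 3100 and 301 in the Sox2 line. The site also had peaks in all 4 lysine Sox libraries (247 and 359 for Sox2, 246 and 182 for Sox17EK) and in 3 of 4 glutamate ones. On chromosome 12 at 31913613 to 31915057, the Oct4 score was 59.9 in F9 and 3100 in F9+RA, and Sox17 scored 1817. The ES Sox peaks at this site were of Sox2KE alone (238 and 946). Its ES Oct4 peaks came from the Sox2KE line (2638 and 762), the Sox17 line (243) and replicate A of the Sox2 line (175). A site on chromosome 14 at 99730066 to 99731602 also had ES Sox peaks of Sox2KE alone, at 82.6 and 509. Its Oct4 score was 58.8 in F9 and 1686 in F9+RA. The other gains were on chromosome 6 at 61065192 to 61065700 (55.4 to 1188), chromosome 3 at 79712348 to 79712746 (57.7 to 1785) and chromosome 13 at 96376267 to 96376949 (57.4 to 1136). All of these F9 scores lay just above the lowest score of the list, so these sites are neighbours of the appearing class. Lysine Sox libraries had a peak in 6 of 24 cases at the rising sites and glutamate ones in 13 of 24. The mean shares across all rising sites were 19.9% for lysine and 26.6% for glutamate libraries. The medians were closer, at 19.3% and 21.5%. Glutamate libraries ran from 8.37% to 54.8%, the highest again being replicate B of Sox2KE, so the higher mean rests largely on that long list.

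Among the 1000 strongest kept sites of F9 cells, the 6 with the largest loss of rank had no Sox17 peak. Of all falling sites, 12.7% had one. Larger losses occurred below the 1000 strongest: 1225 kept sites lost at least 50 points, and 86 of them had a Sox17 peak (7.02%). A site on chromosome 14 at 122815172 to 122816267 went from an Oct4 score of 1703 (percentile 98.3) in F9 to 86.1 (percentile 23.8) in F9+RA. Both residues were found there in ES cells, with Sox2 at 889 and 659 and Sox2KE at 622 and 1145. On chromosome 8 at 84416888 to 84417974, Oct4 scored 2321 in F9 and 104 in F9+RA. In ES cells this site had Sox2 scores of 1392 and 802 and Sox17EK scores of 1069 and 600, no Sox2KE peak, and 1 weak Sox17 peak (78.3). Its ES Oct4 scores were 3100 and 917 with Sox2 and 3148 and 1864 with Sox17EK. With Sox2KE, replicate A scored 69.8 and replicate B had no peak. The sites on chromosome 2 at 153196349 to 153197256 (1563 to 181), chromosome 17 at 36076019 to 36077269 (1870 to 177), chromosome X at 101182473 to 101183483 (1582 to 111) and chromosome 13 at 48254267 to 48256383 (1580 to 175) complete the set. Lysine Sox libraries had a peak in 22 of 24 cases and glutamate ones in 7 of 24. The mean shares across all falling sites were 37.6% for lysine and 22.5% for glutamate libraries. The medians were 37.8% and 18.6%, and glutamate libraries ran from 5.65% to 46.9%. Of the 4 kept sites strongest in both lists, all with scores of 3100 or more, 2 had a Sox17 peak. All 7 ES Oct4 libraries had a peak at each of the 4. One of them, on chromosome 14 at 99737944 to 99740729, lies close to the rising site at 99730066 and scored 3100 in F9 and 3127 in F9+RA.

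**Figure D3:**
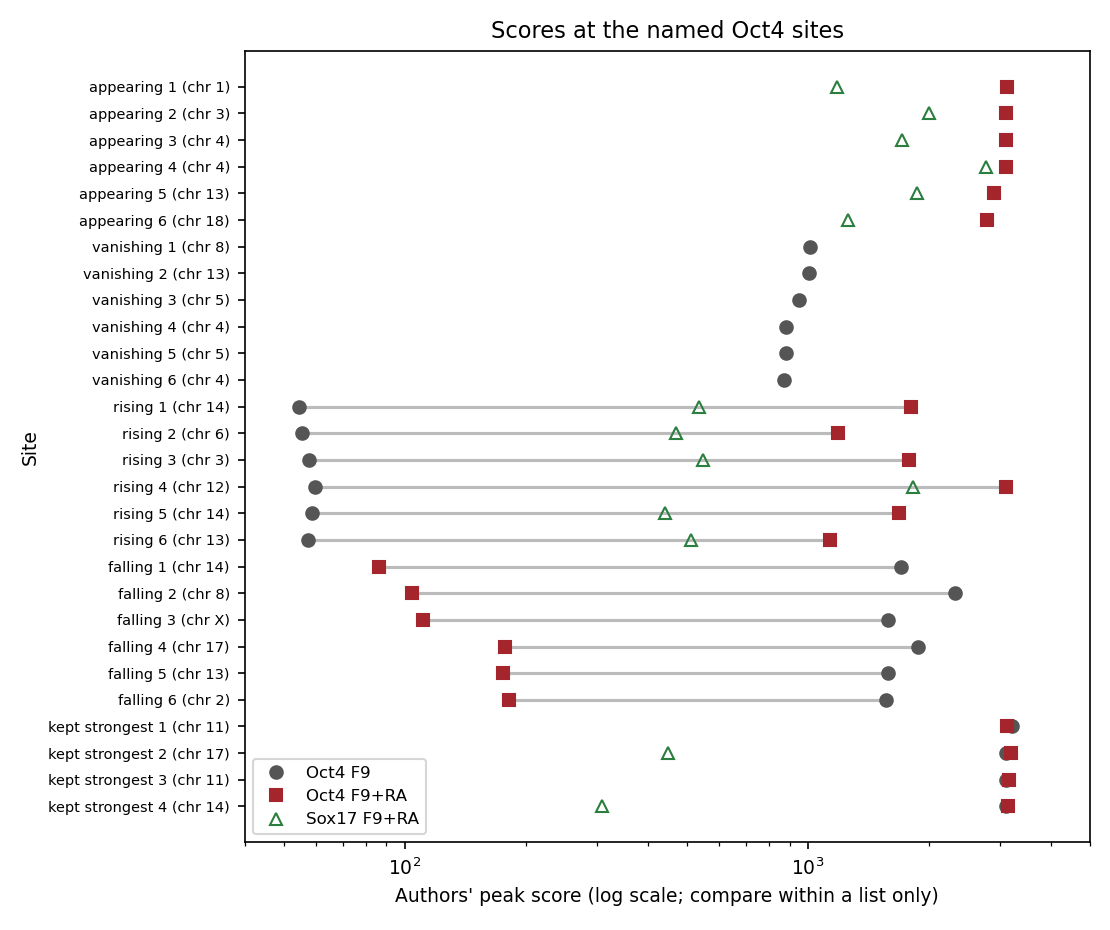
Authors' peak scores (log scale) of Oct4 in F9 (circles) and F9+RA cells (squares) and of Sox17 in F9+RA cells (triangles) at the named sites, 1 site per line; a missing symbol means no peak. The 6 appearing and 6 rising sites each have a Sox17 peak, and the 6 vanishing and 6 falling sites have none. Sox17 lay at only 5.46% of all vanishing and 12.7% of all falling sites, so its absence at 6 of either does not set them apart. The appearing and rising sites were chosen for strong F9+RA scores, where Sox17 was common. It lay at 85.7% of sites of the F9+RA list alone with the 1000 strongest peaks of each list. It lay at 74.0% of kept sites in the strongest F9+RA and weakest F9 bands of 20 percentile points.

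Over all sites, Sox17 of F9+RA cells met rising sites more often than falling ones. A Sox17 peak overlapped 38.1% of rising sites (exact 95% interval 36.8 to 39.3), 35.0% of steady sites (34.5 to 35.5) and 12.7% of falling sites (11.9 to 13.6). With Sox17 peaks moved by 10 kb, the shares were 7.62%, 7.79% and 6.60%. Steady sites thus came near to rising ones, and the falling class stood lower. Sox17 lay at 15.3% of appearing sites (14.9 to 15.7, background 4.60%) and at 5.46% of vanishing sites (5.15 to 5.78, background 4.75%), the latter close to background under overlap matching. With Oct4 peaks matched by midpoints within 200 bp instead, the shares were 20.5% at appearing and 16.3% at vanishing sites. The gap between these classes thus depended on the matching. Under that match, overlapping peaks with midpoints farther apart count as appearing and vanishing, which gave 29120 vanishing sites instead of 20499. The 16.3% therefore includes F9 peaks that overlap an F9+RA peak. Intervals cover counting error over sites only, and all Sox17 values come from 1 library of the same RA-treated cell state as the F9+RA Oct4 list.

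The difference between rising and falling sites was 25.4 points (95% Newcombe interval 23.8 to 26.9), and it grew with the strength of the sites. In 5 groups of equal size by mean percentile, it was 3.03 points in the weakest group, then 12.8, 31.1 and 46.2, and 71.0 in the strongest, where 106 of 128 rising and 24 of 204 falling sites had Sox17. However, rank changes between replicates also went with Sox17. At 32848 peaks per list, sites higher in F9+RA had Sox17 in 60.9% of cases and sites higher in F9 in 21.0%, a difference of 39.9 points. The same difference was 34.4 points between the Sox2 line replicates, 24.3 for Sox2KE and 2.09 for Sox17EK. The order of the letters A and B is arbitrary, so only the size of these values can be read. At this length, differences of most of the size seen in F9 cells thus arose between libraries of 1 line. With the 5000 strongest peaks the F9 difference was 56.0 points, against 27.8, 35.8 and 2.66 in the replicate pairs in the same order. With the 1000 strongest it was 52.1 points, against 13.6, 36.9 and 19.4. How much of the F9 difference goes with RA was not tested. For sites of one list alone the F9 pair gave 25.4 points at 32848 peaks (37.1% against 11.7%). The replicate pairs gave -0.718, -1.29 and -6.01 points, all smaller in size whatever their sign. Among the 5000 strongest peaks the F9 pair gave 61.1 points and the replicate pairs 42.5, 34.8 and 3.20, so at that length large differences arose between replicates here too.

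Sox17 followed the F9+RA rank of a site, and the lysine Sox proteins of ES cells its F9 rank. Kept sites were divided into bands of 20 percentile points in each list. In the strongest F9+RA band, Sox17 lay at 74.0% of sites of the weakest F9 band (114 of 154, exact 95% interval 66.4 to 80.8) and at 59.3% of those of the strongest F9 band (58.0 to 60.7). In the weakest F9+RA band the same shares were 9.56% and 3.55%. At a given F9+RA rank, then, the lowest Sox17 share was at the strongest F9 sites. The share did not fall steadily with F9 rank, however. In F9+RA band 4 it was 36.2% in the weakest F9 band, 52.1% in F9 band 4 and 28.5% in the strongest. In F9+RA band 3 it was 22.4% in the weakest F9 band, 32.1% in F9 band 3 and 14.4% in the strongest. Lysine Sox libraries showed the other axis. In the weakest F9+RA band their mean share went from 11.2% at the weakest to 51.1% at the strongest F9 sites, and in the strongest F9+RA band from 24.0% to 61.9%. Glutamate Sox libraries had mean shares of 13.7% and 17.5% in the weakest F9+RA band, and of 36.5% and 53.8% in the strongest. The ES Sox lists held 5836 to 71693 peaks, so these means are descriptions.

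**Figure D4:**
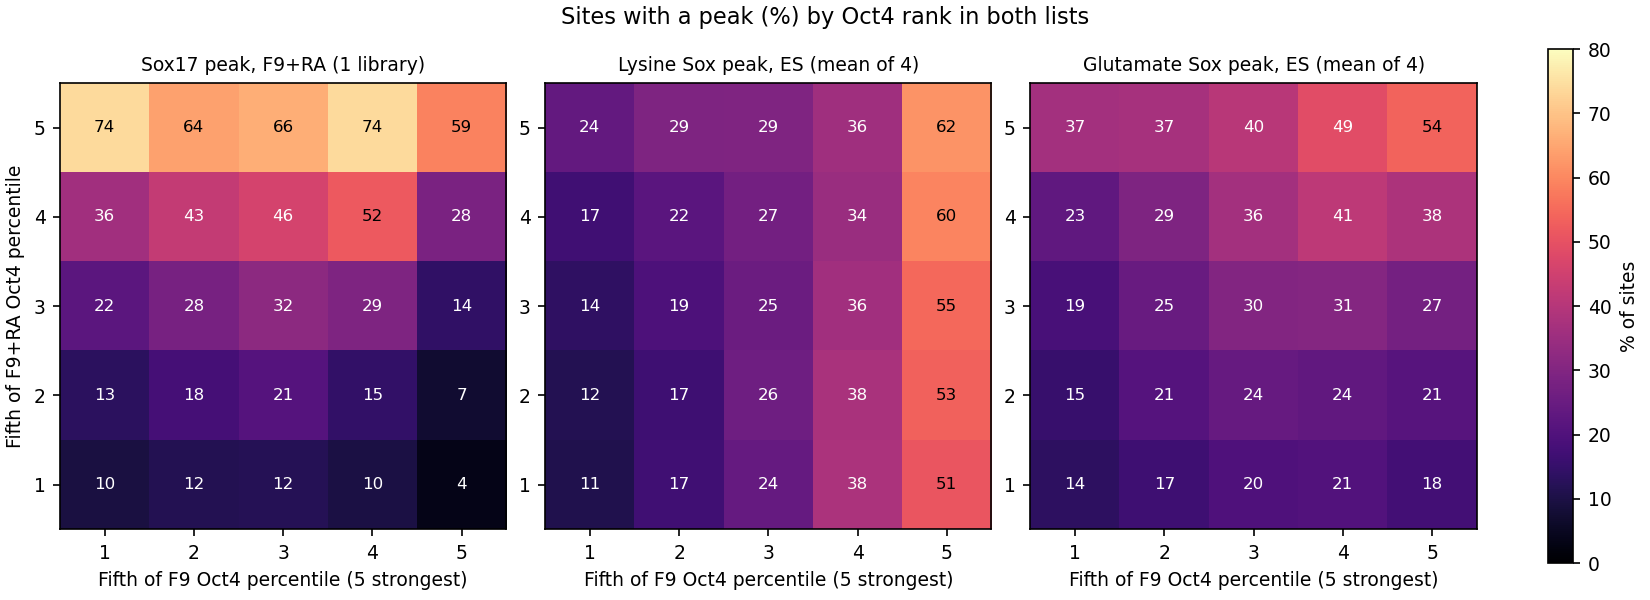
Percent of kept Oct4 sites with a peak of Sox17 in F9+RA cells, of lysine Sox proteins in ES cells (mean of 4 libraries) and of glutamate Sox proteins in ES cells (mean of 4), by 20-point band of Oct4 percentile in F9 (horizontal axis) and in F9+RA cells (vertical axis), 5 being the strongest. Sox17 shares change mainly along the F9+RA axis and lysine shares mainly along the F9 axis, from 11.2% to 51.1% in the lowest row.

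Whether the Sox residue goes with the direction of Oct4 change was asked in the 8 ES Sox libraries, each held to its 5836 strongest peaks. The RA-side share is the percentage of rising or appearing sites among all rising, appearing, falling and vanishing sites that a library met. Among the F9 sites themselves that share is 61.1%. It was 31.5% and 31.8% for Sox2 and 22.7% and 25.2% for Sox17EK. For the glutamate proteins it was 53.0% and 57.9% for Sox2KE and 62.2% and 61.6% for Sox17. Every glutamate library lay above every lysine library, and the strongest 5836 Sox17 peaks of F9+RA cells reached 95.1% (94.2 to 96.0). Means were 58.7% ± 4.24 for glutamate and 27.8% ± 4.56 for lysine libraries (SD, n = 4 each), a difference of 30.9 points. An exact permutation test (two-sided) gave p = 0.0286, which no arrangement of 8 libraries can undercut. Adjusted over 2 tests (Benjamini-Hochberg), the exact permutation p was 0.0571, which fails the correction. With midpoint matching the difference was 14.3 points. Lysine libraries lay well below the 61.1% of all changing sites, and glutamate libraries between 53.0% and 62.2%. That 61.1% depends on list length. With F9 and F9+RA lists of equal length, rising and appearing sites (5208 and 21781) were fewer than falling and vanishing ones (5500 and 24689). The glutamate libraries are therefore not shown to match the share of all changing sites, and library shares at equal F9 list length were not tested.

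Oct4 libraries of the glutamate lines also lay above those of the lysine lines, although Sox2KE and Sox17 changed places. Their labels list V5 as well as Oct4 antibody, so this comparison may partly repeat that of the Sox libraries of the same lines. With 32848 peaks per list, the RA-side share was 36.4% and 37.9% for cells with Sox2, 35.3% and 35.9% with Sox17EK, 57.2% and 52.8% with Sox2KE and 44.4% with Sox17. The glutamate lines averaged 51.5% ± 6.48 (SD, n = 3) and the lysine lines 36.4% ± 1.14 (SD, n = 4), a difference of 15.1 points with no overlap, and of 6.55 points with midpoint matching. The exact two-sided permutation p of 0.0571 is the smallest possible for these numbers, as is the adjusted p of 0.0571 over 2 tests. The labels do not say that replicates A and B are separate cultures, so these p-values measure a spread that may be technical, and replicates share a line. Classes built from the Sox2 line replicates also separated the residues, by 25.1 points, against 31.4 for the F9 lists at the same length. With rising and falling sites alone the values were 32.2 and 32.9 points, so the separation by residue was as large between those replicates. With all changing classes the Sox2KE and Sox17EK line replicates gave 1.83 and 5.54 points.

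**Figure D5:**
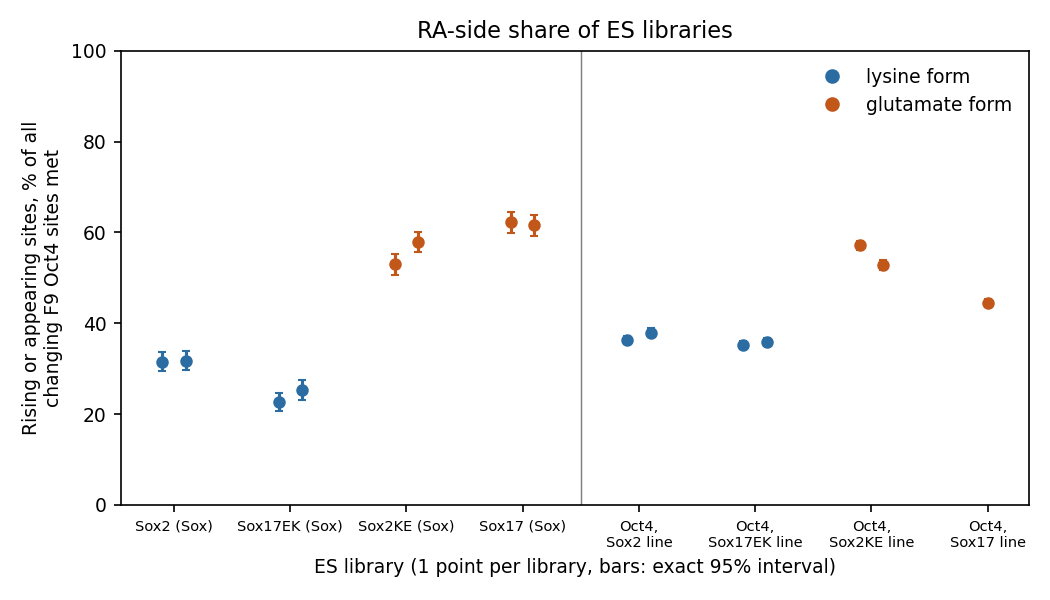
Rising or appearing sites as a percentage of all changing F9 Oct4 sites met by each ES library (1 point per library, bars are exact 95% intervals over sites), for Sox libraries on the left and Oct4 libraries on the right. All glutamate libraries (orange) lie above all lysine libraries (blue) within each kind, the closest being the Oct4 library of the Sox17 line at 44.4% and Oct4 of the Sox2 line at 37.9%.

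Sites met by all libraries of one residue and none of the other differed in rising, falling, appearing and vanishing sites alike. Over all sites, 5.71% were rising, 6.06% falling, 36.1% appearing and 20.6% vanishing. At 910 F9 Oct4 sites, all 4 lysine and no glutamate Sox libraries had a peak. Of these, 26.8% were falling (exact 95% interval 24.0 to 29.8), 2.20% rising, 20.3% vanishing and 2.42% appearing. Falling sites thus exceeded their share of all sites, vanishing sites were at theirs, and appearing sites were few. At the 112 sites of all 4 glutamate and no lysine libraries, 19.6% were rising (12.7 to 28.2), 1.79% falling, 20.5% appearing and 4.46% vanishing. Rising sites exceeded their share of all sites here, while appearing and vanishing sites were both below theirs. Sites met by all 8 libraries were mostly steady (82.4% of 1438), with 5.49% rising and 7.51% falling. A Sox17 peak of F9+RA cells lay at 4.07% of the lysine-only, 60.7% of the glutamate-only and 53.1% of the common sites. The Sox17 ES lists are short (10301 and 5836 peaks), which leaves few sites with all glutamate libraries.

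The classes also differed in how far they were Oct4 sites of ES cells. No ES Oct4 library had a peak at 72.7% of appearing sites, 43.5% of vanishing, 23.5% of rising, 14.8% of steady and 10.8% of falling sites. All 7 had one at 35.2% of steady sites, 19.4% of rising and 20.2% of falling sites. Appearing sites were therefore mostly absent from the ES lists. They were also the narrowest, with a median width of 402 bp against 563 bp for vanishing and 879 bp for kept sites, and a narrow interval meets another list less often. Falling sites exceeded rising sites in the share with an ES Oct4 peak by 15.7 to 18.7 points in the 4 lysine lines' libraries and by 8.44 points in the Sox17 line. The Sox2KE line had the opposite order in both libraries, the difference there being -6.84 and -6.30 points.

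Sites of one class tended to lie near others of that class. Among sites with another site within 10 kb, the nearest was appearing for 46.2% of appearing sites, against 33.2% over all sites. For vanishing sites the nearest was vanishing in 26.1%, against 21.0%. Rising sites had a rising neighbour in 7.82% (5.92% over all sites) and a falling one in 4.28% (6.31%). Falling sites had a falling neighbour in 9.13% (6.31%). These excesses were of a few points for rising and falling sites, most of whose neighbours were steady, appearing or vanishing.

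Appearing sites were spread unevenly over chromosomes. Chromosome 12 held 9.48% of appearing sites, 5.01% of vanishing sites and 7.29% of all sites, or 3.32 appearing per vanishing site. On the other chromosomes this ratio ran from 1.20 (X) to 2.28 (chromosome 6). Within chromosome 12 it was 6.13 between 90 and 100 Mb, 4.70 between 100 and 110 Mb and 4.44 between 110 and 120 Mb, and 1.07 to 2.71 in all 10-Mb bins from the start to 90 Mb. Rising sites outnumbered falling ones by 2.17 and 2.69 to 1 between 100 and 120 Mb. The Sox17 list of F9+RA cells held 10.3% of its peaks on this chromosome, the Oct4 list of F9+RA cells 8.15% and that of F9 cells 6.10%. The bins at 100 to 110 and 110 to 120 Mb held 2403 and 1602 sites of all classes, against 88 to 483 in each bin below 80 Mb. A change of copy number between cultures cannot be told apart from a change of binding in these lists. Without chromosome 12 the Sox17 difference between rising and falling sites was 25.6 points.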

How the data were processed

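Peak lists were deposited as 5 columns without a header: chromosome, start, end, name and a score. Peak names carry the MACS prefix, per the deposited files. The score was read as 10 times −log10 of the authors' p-value, an inference from the lowest value of 50, since no label states it. Start and end (another unit, positions in bp in the deposited files) refer to mm9, per the submitters' processing notes. They were taken to count from 0 and are printed from 1. The aligner, caller settings and control were not given in the sources used here. Read depth is not known.

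Overlapping peaks of the 2 Oct4 lists were joined, and a site took its highest score in each list. Shares have exact (Clopper-Pearson) 95% intervals. Named sites were the 6 strongest appearing, the 6 strongest vanishing, the 6 largest gains and losses of percentile among the 1000 strongest kept sites of F9+RA and F9, and 4 kept sites strongest in both. Members, tests and lists were chosen with earlier results of these data known. The site caller was tested on simulated lists. Gene names, sequences and motifs were not used here, because the reference tables belong to GRCm38. The 2 mock libraries were not analysed here. Alternatives were other matching rules, list lengths, thresholds and libraries left out. Python 3.11.15, NumPy 2.4.6, pandas 2.3.3, SciPy 1.17.1 and Matplotlib 3.10.9 were used.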

Additional observations from a re-analysis of the deposited data

How the results depend on the processing

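The Sox17 share was higher at rising than at falling sites under all alternatives run. The difference of 25.4 points was 21.3 with midpoints within 200 bp as the match, 26.9 with lists of equal length, 23.3 with scores of at least 100, 27.3 with summed scores, and 22.9 and 32.3 with thresholds of 15 and 40 points. By groups of mean percentile it was 3.03, 12.8, 31.1, 46.2 and 71.0. Numbers of sites depended on the settings. Appearing sites numbered 21781 at equal list length, fewer than the 24689 vanishing sites, so the excess of appearing sites did not hold at equal length. With scores of at least 100 there were 25084 kept, 12815 appearing, 11680 vanishing, 3690 rising and 3898 falling sites. Rising and falling sites numbered 10253 and 10118 at 15 points and 2077 and 2544 at 40 points. With midpoints as the match, Sox17 lay at 16.3% of vanishing sites, which then include F9 peaks that overlap an F9+RA peak.

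The glutamate minus lysine difference of the Sox libraries was 29.2 to 32.8 points with each library left out (exact permutation p = 0.0571, the smallest possible then), and 14.3 points with midpoints as the match and 21.1 with whole lists. For the Oct4 libraries it was 12.3 to 18.6 points with 1 library left out and 6.55 with midpoints. Permutation within replicate letters (the replicate block) leaves 30.9 points with an exact p = 0.0556 for the Sox libraries and 15.1 points with an exact p = 0.0556 for Oct4, the smallest possible in both. Nothing in the labels says that letters pair libraries. Alternatives added after the data were seen were the removal of chromosome 12, a window of 250 bp about the midpoint of a site, bands of percentile in each list and the classes built from replicate pairs. Without replicates in F9 cells and with unknown depth, a change at a single site cannot be set against the spread between libraries.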
